A study of Mus musculus with 24 samples.

Results

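Platelet and red cell transcripts were followed in T cells sorted as CD8-positive from blood and pancreas. The set held 8 genes of the 24421 in the deposited count tables, taken by symbol: 5 of platelets (Ppbp, Pf4, Tubb1, Gp9 and Itga2b) and 3 of red cells (Alas2, Bpgm and Hba-a1). They were chosen with earlier results of these files known, in which platelet and red cell genes as groups were higher in blood than in pancreas. Their levels and fitted differences by tissue are therefore a description from which no test is read. The cells were sorted as CD45+CD3+CD8+ from KC mice and wild-type (WT) B6 mice, and total RNA was sequenced in 24 libraries. The KC strain models pancreatic cancer, with early lesions that appear as the animals age. Their genotype is not spelled out in the sources used here, and the labels mark treatment as not applicable. KC pancreas had 12 libraries, of which 3 were taken at 4 weeks of age, 2 at 9, 3 at 13, 2 at 20 and 2 at 30. For KC blood there were 9, with 2 taken at 4 weeks, 1 at 9, 3 at 13, 1 at 20 and 2 at 30. WT pancreas had 1 library at 9 weeks and 1 at 30 weeks, and WT blood had 1 library at 30 weeks. Libraries are named by their titles, in which P8 marks pancreas and B8 marks blood. Whether a library came from 1 mouse or from pooled mice is not given in the sources used here, and p-values measure the spread between these libraries.

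Platelets are cell fragments shed by megakaryocytes into the blood. They have no nucleus but carry messenger RNA and granules filled with chemokines and clotting proteins, and they bind to leukocytes. Young red cells, the reticulocytes, also keep RNA for haem and haemoglobin synthesis for a short time after they lose the nucleus. In bulk RNA of a sort, fewer cells of a type and less RNA per cell cannot be told apart, and the same holds for whole cells, attached fragments and free RNA.

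Gene counts per library ran from 6352070 to 16716169. The summed level of the 9 T cell markers found in the files (Cd3d, Cd3e, Cd3g, Cd8a, Cd8b1, Cd2, Cd5, Lck and Thy1) was 6268 to 15616 CPM (counts scaled to a gene total of 1000000) in KC blood and 6895 to 19077 CPM in KC pancreas, with none of them at 0 in either group. Not every gene of the set had a higher mean in blood. Hba-a1 was at 0 in all 24 libraries. Gp9 had a mean of 0.0182 CPM in KC blood and 0.0369 CPM in KC pancreas. These rest on 2 and 4 counts in all, at most 1 per library, which is too few to give a direction. Itga2b had a mean of 1.35 CPM in KC blood and 7.84 CPM in KC pancreas through Sample_205P8, while its median was higher in blood. Libraries were also grouped into 2 sets, of 12 each, called trace sets below. The sets come from 94 genes that reached 100 CPM in a source library (14 sources) and stayed at or under 5% of it in all others. Libraries were clustered by where low counts of these genes turned up, with the number of sets fixed at 2. Such counts turned up in 92.6% of checks within a set and 48.0% across sets. Since the same counts made the sets, these shares describe the sets and do not test them. KC pancreas of 4 and 13 weeks, the 3 WT libraries and KC blood libraries Sample_131B8, Sample_42B8 and Sample_43B8 formed set 1, and all remaining libraries formed set 2. In addition, 4 libraries stood apart by the number of genes with at least 10 counts: Sample_95B8, Sample_132B8, Sample_W3B8 (WT blood) and Sample_95P8 (pancreas) had 10487 to 11227 such genes, and the others had 5813 to 8794. Their 6 pairwise correlations of log2 CPM across genes were the 6 of 276 pairs of libraries at or above 0.95, where the median pair was at 0.831. The main tissue values of Ppbp, Tubb1 and Alas2, the medians of Itga2b and the values of the gene lists are given with and without these 4 libraries. Values of Ppbp, Pf4 and Alas2 are also given by trace set.

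The genes stand at separate loci except Ppbp and Pf4, neighbours in a chemokine cluster. On GRCm38, Ppbp lies at chr5:90768518-90770063 and Pf4 at chr5:90772435-90773383, both on the plus strand, with 2371 bases and 0 annotated genes between them. Alas2 lies at chrX:150547375-150570638 on the plus strand. The others are Tubb1 at chr2:174450695-174457882, Gp9 at chr6:87778072-87779768, Bpgm at chr6:34476207-34505613 and Hba-a1 at chr11:32283511-32284465 on the plus strand, and Itga2b at chr11:102453297-102470122 on the minus strand. Their upstream sequences are shown because these 3 genes carry most of the description that follows. Each ends at the base before the annotated start of the gene, is read from the RefSeq promoter table of build GRCm38.p6, and has capitals at matches, on either strand, of GATA preceded by A or T and followed by A or G, and of TATAAA (called TATA below).
Ppbp, chr5:90768268-90768517, plus strand: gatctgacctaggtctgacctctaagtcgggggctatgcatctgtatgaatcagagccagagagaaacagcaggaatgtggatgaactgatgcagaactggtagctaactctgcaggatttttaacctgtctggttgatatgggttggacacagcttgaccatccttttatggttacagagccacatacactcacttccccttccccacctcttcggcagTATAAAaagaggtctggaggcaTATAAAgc
Pf4, chr5:90772185-90772434, plus strand: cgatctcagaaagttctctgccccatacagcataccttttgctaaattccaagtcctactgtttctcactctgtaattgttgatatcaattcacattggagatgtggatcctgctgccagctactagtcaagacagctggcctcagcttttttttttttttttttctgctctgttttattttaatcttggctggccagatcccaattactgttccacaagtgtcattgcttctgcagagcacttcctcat
Alas2, chrX:150547167-150547374, plus strand: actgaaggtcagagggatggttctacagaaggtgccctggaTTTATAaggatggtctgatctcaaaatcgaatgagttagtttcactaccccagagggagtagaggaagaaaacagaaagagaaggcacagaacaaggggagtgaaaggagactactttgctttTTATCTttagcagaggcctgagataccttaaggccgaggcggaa
The Ppbp window held 2 TATA matches and 0 GATA matches, and the Pf4 window held 0 of each. The Alas2 window of 208 bases held 1 GATA match and 1 TATA match, both on the minus strand. Of 32851 promoters in that table, 26.5% held a GATA match and 12.4% a TATA match in 250 bases, and 23.7% and 9.47% in 208 bases. A match describes letters only.

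Ppbp, the platelet chemokine precursor released from alpha granules, was the most abundant of the 8 genes in 7 of the 10 blood libraries. Its levels did not overlap between the KC tissues. The set was chosen on this contrast and the trait was not counted over all genes, so nothing is read from it. The KC blood libraries held 380 to 2436 counts, or 38.7 to 289 CPM, with a median of 127 CPM. The WT blood library held 5160 counts (309 CPM), above every KC blood library. All 14 pancreas libraries held Ppbp counts, but only 14 to 34 each: 1.46 to 5.35 CPM in KC and 2.47 and 3.13 CPM in WT. The lowest KC blood library (Sample_131B8) thus lay 7.22-fold above the highest KC pancreas library (Sample_303P8). Medians differed 41.5-fold. Within trace set 1 the levels were 38.7 to 165 CPM in 3 blood and 1.63 to 4.01 CPM in 6 pancreas libraries of KC mice, and within set 2 they were 58.4 to 289 and 1.46 to 5.35 CPM.

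In the model of the 21 KC libraries, which takes age as a category, the Ppbp difference of pancreas from blood was a log2 fold change of -5.14 ± 0.74 (standard error, SE, from the edgeR fit). Without the 4 libraries that hold the most genes, it was -5.38. Red cell messages exceeded it in 3 KC blood libraries: Alas2 and Bpgm in Sample_95B8 (110 and 138 against 59.7 CPM), both in Sample_131B8 (114 and 56.2 against 38.7 CPM), and Bpgm in Sample_132B8 (129 against 127 CPM).

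Pf4, platelet factor 4, is another chemokine of alpha granules and the next gene downstream of Ppbp, yet it was far lower. Its KC blood counts were 6, 24, 24, 5, 72, 136, 13, 0 and 4 in libraries ordered by age and number, which is 0 to 15.8 CPM with a median of 1.54 CPM. The highest was Sample_133B8 of 13 weeks and the one at 0 was Sample_302B8 of 30 weeks. The WT blood library held 280 counts (16.8 CPM). Ppbp exceeded Pf4 by 12.8-fold to 328-fold in counts in the 8 KC blood libraries with Pf4 counts and by 18.4-fold in WT blood, so the ratio of these 2 alpha-granule messages was not constant across blood sorts. Per kilobase of exon, the median KC blood level was 117 CPM for Ppbp and 2.14 CPM for Pf4.

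In pancreas, Pf4 counts split by trace set, which among KC pancreas libraries is also a split by age. All 8 libraries of set 1, KC and WT, held 2 to 7 counts, and all 6 of set 2 held 0. Each count of 0 allows up to 3 counts in that library. Set 1 contained the WT blood library with 280 Pf4 counts, and the median pancreas count of set 1 was 1.25% of that. For Ppbp the same share was 0.601% in set 1, and in set 2 it was 0.780% of the 2436 counts in Sample_205B8. Whether these pancreas counts came from cells in the sort or from other libraries of the set was not tested.

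**Figure D1:**
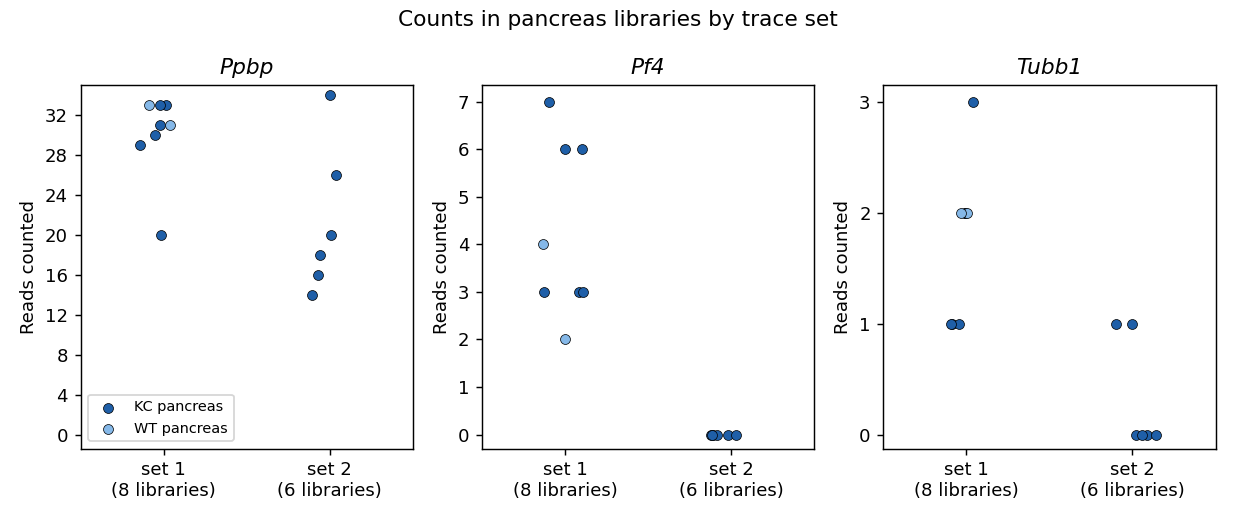
Reads counted for Ppbp, Pf4 and Tubb1 (vertical axes, each from 0) in the 14 pancreas libraries, split by trace set; each point is a library, KC in dark and WT in light blue. Ppbp is at 14 to 34 counts in both sets, whereas Pf4 is at 2 to 7 in set 1 and at 0 in all 6 libraries of set 2.

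Tubb1, the beta-tubulin isotype of the platelet marginal band, was high in only some blood sorts. Its counts were 138 in Sample_95B8, 129 in Sample_132B8, 26 in Sample_43B8 and 446 in WT blood, and 0 to 3 in the 6 other KC blood libraries. Pancreas libraries held 1 to 3 counts in 8 of 8 libraries of set 1 and at most 1 count in set 2, where 2 of 6 had any. The KC groups overlapped, with medians of 0.237 CPM in blood and 0.104 CPM in pancreas. The fitted log2 difference of pancreas from blood was -2.87 ± 1.28 (SE), and it was -1.24 without the 4 libraries that hold the most genes.

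Itga2b, the integrin alpha-IIb chain of the platelet fibrinogen receptor, shared the 2 high KC blood libraries with Tubb1. It had 52 counts in Sample_95B8, 83 in Sample_132B8 and 12.2 CPM in WT blood, and 0 to 6 in the 7 other KC blood libraries. Its highest level of all was in a pancreas library: Sample_205P8, of 20 weeks, held 895 counts (92.2 CPM), against 0 to 11 counts in the other 13 pancreas libraries. Sample_205P8 had no counts of Pf4, Tubb1 or Gp9, and 20 counts of Ppbp, within the range of the other pancreas libraries. The mean KC pancreas level of Itga2b was 7.84 CPM with that library and 0.171 CPM without it, against 1.35 CPM in KC blood. Without it, the mean in blood was 7.90-fold that in pancreas, but the blood mean rested on Sample_95B8 (4.66 CPM) and Sample_132B8 (5.05 CPM). Medians were 0.417 CPM in KC blood and 0.0960 CPM in KC pancreas. Without the 4 libraries that hold the most genes, and with Sample_205P8 kept, they were 0.348 and 0.0814 CPM.

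Gp9, a small chain of the platelet receptor for von Willebrand factor, was above 1 count in the WT blood library only. It had 124 counts there (7.42 CPM), 1 count in each of Sample_43B8 and Sample_132B8, and 0 in the 7 other KC blood libraries. In pancreas it had 1 count in 4 KC libraries, all of trace set 1 as is the WT blood library, and 0 in the other 10.

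Alas2, the enzyme that starts haem synthesis in red cell precursors, was the clearest red cell message. KC blood ranged from 7.02 to 114 CPM (53 to 1573 counts), with a median of 39.2 CPM, and WT blood was at 104 CPM. KC pancreas ranged from 1.24 to 9.52 CPM, with a median of 1.75 CPM, and the WT pancreas libraries were at 4.75 and 12.6 CPM. The KC ranges touched through 1 pancreas library, Sample_95P8, whose 9.52 CPM exceeded the 3 lowest blood libraries (Sample_302B8, Sample_133B8 and Sample_205B8). The fitted log2 difference of pancreas from blood was -4.12 ± 0.90 (SE). Without the 4 libraries that hold the most genes, Sample_95P8 among them, it was -4.27. The KC ranges there, 7.02 to 114 CPM in blood and 1.24 to 6.18 CPM in pancreas, did not touch, a trait not counted over all genes. Within trace set 1, with 3 blood and 6 pancreas libraries, the KC tissues did not overlap (30.4 to 114 against 1.41 to 2.43 CPM), also not counted over all genes. Within set 2, which holds Sample_95P8, they did (7.02 to 110 against 1.24 to 9.52 CPM).

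Bpgm, the red cell enzyme that makes 2,3-bisphosphoglycerate from a glycolytic intermediate, did not follow Alas2 in pancreas. In KC blood it ranged from 3.29 to 138 CPM with a median of 46.4 CPM, and WT blood was at 119 CPM. KC pancreas had a median of 6.25 CPM, yet 3 libraries lay far above: Sample_302P8 at 91.9, Sample_204P8 at 78.7 and Sample_205P8 at 70.3 CPM. Those 3 libraries held only 12 to 15 counts of Alas2, and Alas2 was 0.0176 to 0.0208 of Bpgm in counts there, against 0.254 to 14.7 in KC blood. In WT pancreas, Bpgm was at 44.9 CPM at 30 weeks and 4.56 CPM at 9 weeks. Bpgm in these 3 libraries, and Itga2b in Sample_205P8, were thus high where the other members of their lineage were low.

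**Figure D2:**
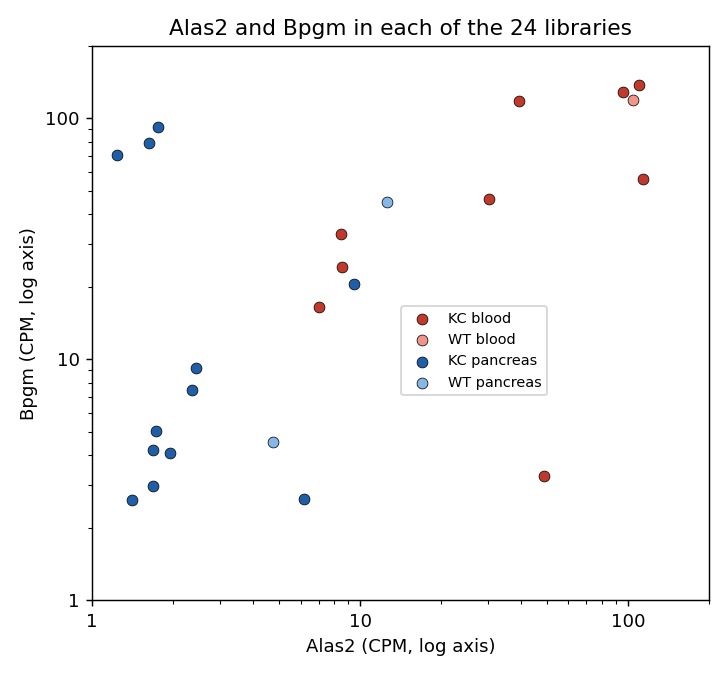
Level of Bpgm against Alas2 in the 24 libraries, both in CPM on log axes; each point is a library, coloured by strain and tissue. The 3 KC pancreas libraries at the upper left have 70.3 to 91.9 CPM of Bpgm with 1.24 to 1.77 CPM of Alas2, and the blood library at the lower right is Sample_43B8, with 48.5 CPM of Alas2 and 3.29 CPM of Bpgm.

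Hba-a1, an alpha-globin gene, was listed at 0 in all 24 libraries. So were the 9 other haemoglobin genes of the files (Hba-a2, Hbb-bs, Hbb-bt, Hbb-b1, Hbb-b2, Hbb-bh1, Hbb-y, Hba-x and Hbq1a), although Alas2 reached 1742 counts. Of all 24421 genes, 8990 were at 0 in all 24 libraries. Globins are the most abundant messages of reticulocytes. Of the 50-base words in the exons of Hba-a1, 72.3% also occur in Hba-a2, and 53.2% of those of Hbb-bs occur in Hbb-bt. Reads there can fail to map to 1 place, while the rest of the words of Hba-a1 and Hbb-bs occur in no other gene. The files tally 15.8% to 22.8% of reads as not unique. Hba-x, Hbb-bh1 and Hbb-y, which share 0%, are embryonic globins not made by adult red cells, so their zeros do not bear on those of the adult genes. Whether globin reads were removed, were discarded as not unique or were not in the RNA was not tested, and the zeros cannot be read as absence. The 7 other members share 0% of their 50-base words with other genes.

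**Figure D3:**
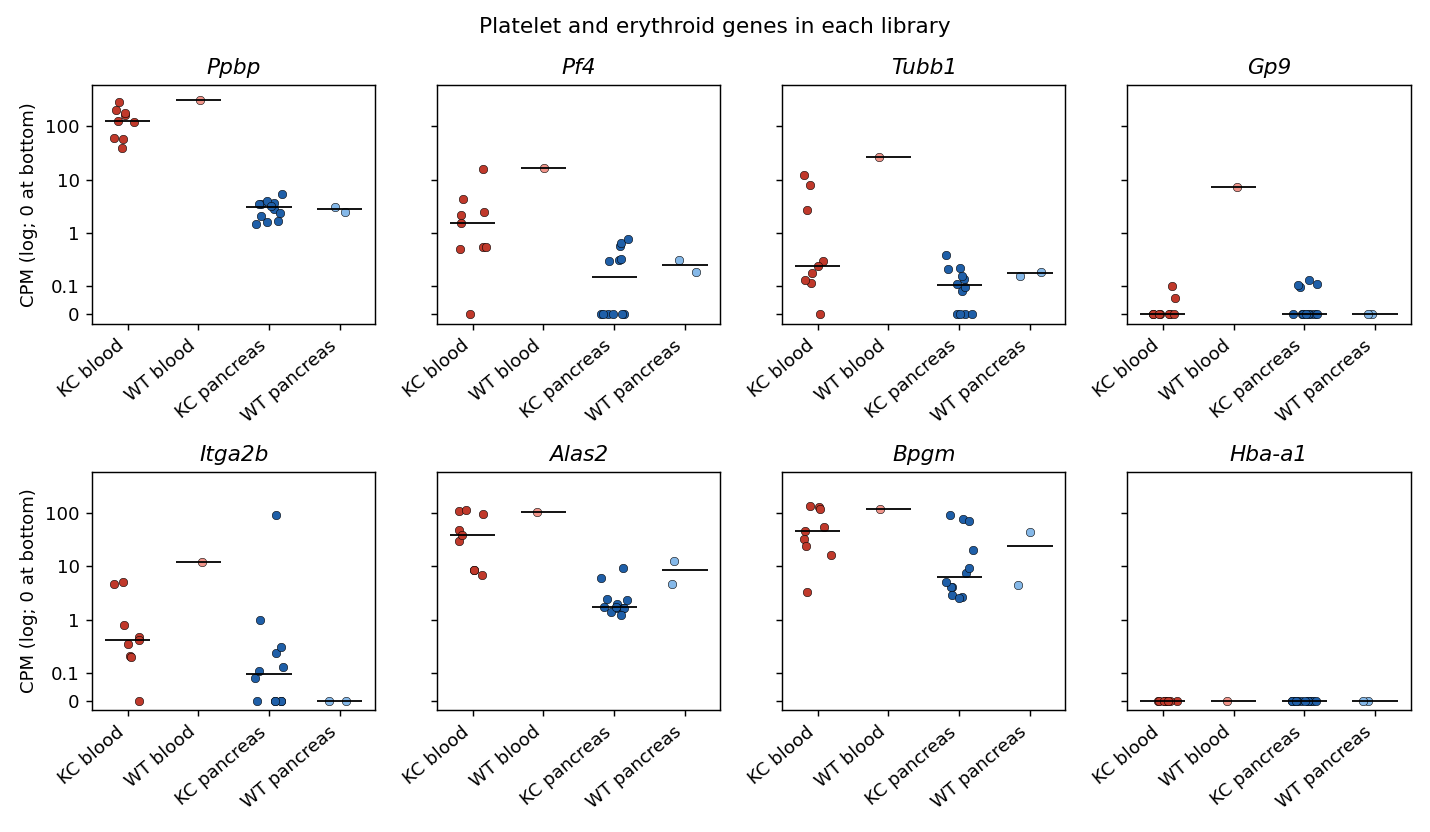
Level of each of the 8 genes in CPM (log axis, with 0 drawn at the bottom) in the 24 libraries, by group; points are libraries and lines are group medians. Ppbp is at 38.7 to 309 CPM in blood and 1.46 to 5.35 CPM in pancreas, Gp9 is above 1 CPM in WT blood only, and Hba-a1 is at 0 throughout.

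In counts, 2 of the 6 members tested between KC tissues, Ppbp and Alas2, were among the 10 genes that edgeR called of 11059 (0.0904%), and they were the 2 called lower in pancreas; since the genes were picked on this contrast, nothing is read from that. Libraries were also set side by side by title number. In 9 KC pairs that share number and age, Ppbp was higher in blood in 9, by 10.6-fold to 140-fold (median 35.4-fold), and Alas2 in 9, by 3.97-fold to 57.0-fold. Pf4, Tubb1 and Itga2b were each higher in blood in 7 pairs and Bpgm in 6. They were higher in pancreas in 1, 2, 1 and 3 pairs, in that order. Most of the 7 pairs of Tubb1, and most of those of Itga2b, held at most 3 counts in either library. Such counts are too few to give a direction, so no consistent difference is read from these 7 pairs. The share of all genes higher in blood in as many pairs was not counted. Gp9, with at most 1 count in any KC library, was higher in blood in 0 pairs and higher in pancreas in 4. The labels do not state that a number is a mouse.

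Summed over the members, the platelet genes had a median of 144 CPM in KC blood and 3.74 CPM in KC pancreas, a ratio of 38.5, and the red cell genes had 76.7 and 9.31 CPM, a ratio of 8.24. For the platelet sum, Sample_205P8 was the only pancreas library above the lowest blood library, at 94.2 CPM through Itga2b. For the red cell sum, 4 of the 12 KC pancreas libraries were at or above the lowest blood library. Scaled to T cell markers in place of the library total, the ratios were 45.6 and 7.40. The composition of the platelet sum differed between blood sorts: Ppbp made up 75.7% to 99.6% of it in KC blood and 83.0% in WT blood. Ordered per kilobase of exon, the KC blood medians ran Ppbp (117 CPM), Alas2 (16.3), Bpgm (12.9), Pf4 (2.14), Tubb1 (0.169), Itga2b (0.0765) and Gp9 (0). Across the KC blood libraries, the ranges of every gene and its neighbour in that order overlapped.

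The WT pair of 30 weeks, with 1 library per tissue and so no replicate check, had higher levels in blood for all 7 members with counts. Intervals are exact Poisson 95% intervals, which cover counting error only. Ppbp was 125-fold higher in blood (5160 against 31 counts, interval 87.8 to 184), Pf4 52.5-fold (280 against 4, interval 20.3 to 194) and Tubb1 167-fold (446 against 2, interval 46.02 to 1385). Gp9 was at least 31.0-fold higher (124 against 0 counts) and Itga2b at least 51.0-fold (12.2 CPM against 0), with the floor of 3 counts per library. Alas2 was 8.27-fold higher (interval 7.02 to 9.79) and Bpgm 2.66-fold (interval 2.42 to 2.92). The WT blood library was also the deepest and among the 4 with the most genes.

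A wider list of platelet genes showed how far blood sorts differed in the breadth of this signal. Of 46 platelet genes, members included, 37 had at least 10 counts in WT blood, 35 in Sample_95B8 and 33 in Sample_132B8, but only 10 to 20 in the other 7 KC blood libraries. Sample_95P8, the pancreas library with a like number of detected genes, held 16, and the other pancreas libraries held 6 to 15. Of 50 red cell genes, the 3 blood libraries held 24 to 26, Sample_95P8 held 20, and all others held 11 to 19. The part of gene detection in these counts was not tested beyond this comparison.

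**Figure D4:**
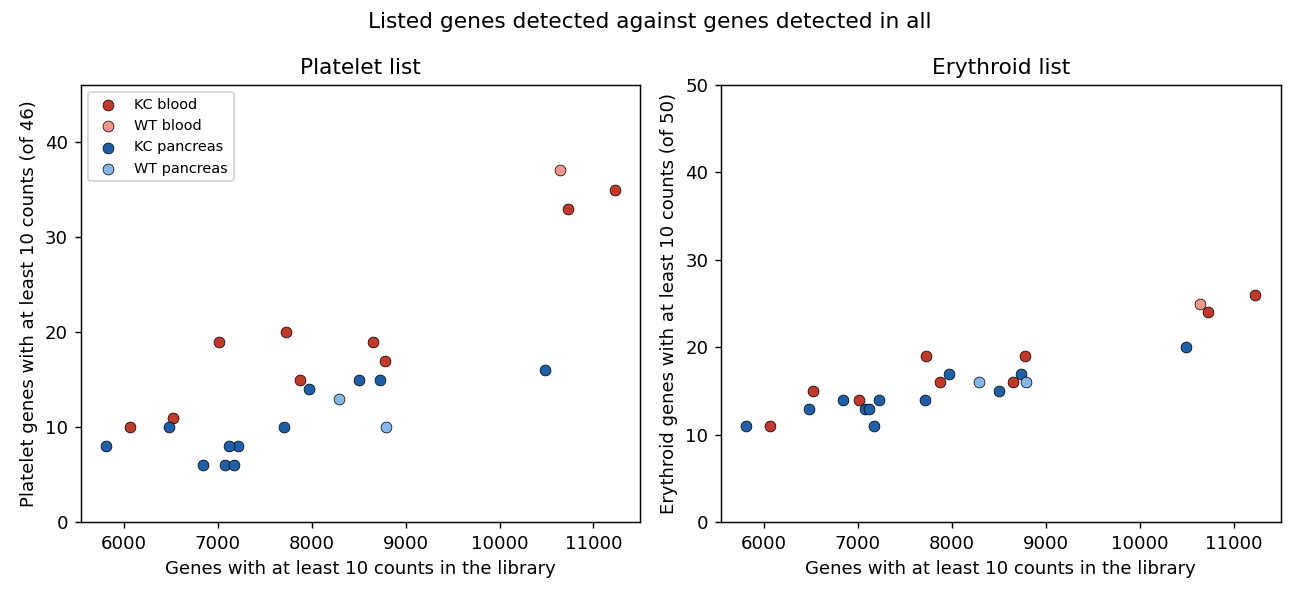
Number of listed platelet genes (left, of 46) and red cell genes (right, of 50) with at least 10 counts against the number of all genes with at least 10 counts, per library. At 10487 genes or more, the 3 blood libraries hold 33 to 37 platelet genes and the pancreas library 16, and on the right 24 to 26 and 20.

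No listed gene beyond the members was called by edgeR in any of the 6 comparisons. Between KC tissues, 26 of the 41 other platelet genes were tested. Of these, 22 were lower in pancreas by estimate and 15 (57.7%) had an unadjusted p under 0.05, of which 13 were lower and 2 higher in pancreas. None was called, and the median log2 value was -2.44. Of 47 other red cell genes, 22 were tested, 19 had negative values, 6 (27.3%) had an unadjusted p under 0.05, all of them lower in pancreas, and the median was -1.18. Over all 11059 genes tested, 6037 (54.6%) had negative values, 1089 (9.85%) had an unadjusted p under 0.05, of which 689 were lower in pancreas, and the median was -0.116. Without the 4 libraries that hold the most genes, the medians were -1.92 (22 of 27 negative) and -1.23 (22 of 29 negative), beside 0.0355 over all genes. These lists were drawn up with earlier results of these files known, and fitted values of genes near 0 in pancreas depend on the prior count.

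By role, 8 of 16 platelet receptors had a higher median in KC blood than in KC pancreas, 1 had a lower one and 7 had equal medians. Granule proteins were near an even split, with 5 higher and 4 lower of 9, and of 11 cytoskeletal or signalling genes 8 were higher and 1 lower. Of the 15248 genes with counts in a KC library, 49.5% had a higher and 25.4% a lower median in KC blood. The lowest adjusted p-values of the edgeR test between tissues, in genes named after their values were seen, belonged to F5, clotting factor V (log2 -3.71, adjusted p = 0.0670), P2ry12, the platelet ADP receptor (-5.86, adjusted p = 0.0852), and Gp1ba, the von Willebrand factor receptor chain (-5.50, adjusted p = 0.115). P2ry12 had a median of 4.26 CPM in KC blood and 0.117 CPM in KC pancreas, and Gp1ba 11.3 and 0.305 CPM. Other listed genes had higher estimates in pancreas, also named after their values were seen: the matrix glycoprotein gene Sparc (log2 3.18, adjusted p = 0.456), with medians of 0 CPM in KC blood and 0.296 CPM in KC pancreas, and the integrin activator gene Fermt3 (2.07, adjusted p = 0.531), with 4.17 and 10.3 CPM. Leaving out the members, the 3 listed platelet genes with the highest mean CPM in KC blood were Srgn, Tuba4a and Plek, which lymphocytes also express. Srgn, the granule proteoglycan serglycin, had medians of 240 CPM in KC blood and 374 CPM in KC pancreas (log2 0.89, adjusted p = 0.504). Tuba4a, an alpha-tubulin, had 57.7 and 14.01 CPM (log2 -1.70, adjusted p = 0.491), and Plek, the kinase substrate pleckstrin, 81.0 and 39.5 CPM (log2 -0.89, adjusted p = 0.758).

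Among red cell genes, medians in KC blood were higher for 6 and lower for 1 of 8 of haem synthesis, higher for 4 and lower for 0 of 13 of the membrane and skeleton, and higher for 9 and lower for 2 of 15 of iron handling and other roles. The medians of the 9 haemoglobin genes other than Hba-a1 and of 2 factors, Klf1 and Epor, were equal. Over all 24421 genes, 30.9% had a higher and 15.9% a lower median in KC blood, and over the 15248 with counts in a KC library 49.5% and 25.4%. Slc25a37, the mitochondrial iron importer mitoferrin, had medians of 139 CPM in KC blood and 13.2 CPM in KC pancreas (log2 -2.39, adjusted p = 0.236). Mkrn1, a ubiquitin ligase, had 144 and 21.1 CPM (log2 -1.22, adjusted p = 0.591). Bnip3l, which marks mitochondria for removal in maturing red cells, had 259 and 204.8 CPM (log2 -0.01, adjusted p = 0.999), and ranged from 58.4 to 470 CPM in KC pancreas. Leaving out the members, these were the 3 listed red cell genes with the highest mean CPM in KC blood. The part of red cells in their levels was not tested. Klf1, the red cell transcription factor, and the red cell genes Car1 and Tspo2 were listed at 0 in all 24 libraries, as were 8990 of all 24421 genes. None of these values passed the edgeR threshold of an adjusted p under 0.05.

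With age, no member of the 5 tested in KC blood was called by edgeR's quasi-likelihood test, in which 0 of 9933 genes (0%) were called, 870 had an unadjusted p under 0.05 and DESeq2 called 315. Slopes are in log2 per 10 weeks. Ppbp had a slope of -0.26 ± 0.47 (SE, adjusted p = 0.900), with 165 and 119 CPM at 4 weeks, 289 CPM at 20 weeks and 58.4 and 182 CPM at 30 weeks. The 3 libraries of 13 weeks alone spanned 38.7 to 201 CPM. Tubb1 had the steepest value, -2.58 ± 1.27 (adjusted p = 0.568), and its high libraries were of 4, 9 and 13 weeks, with 0 to 2 counts at 20 and 30 weeks. Without any 1 of Sample_95B8, Sample_132B8 and Sample_43B8, or without the 4 libraries that hold the most genes, Tubb1 did not pass the filter, so its slope has no value there. Pf4 was at -1.61 ± 1.38 (adjusted p = 0.772) and Alas2 at -0.997 ± 0.766 (adjusted p = 0.738), and without Sample_302B8 they were at -0.76 and -0.58. Bpgm was at -0.13 ± 0.64 (adjusted p = 0.974). Itga2b, Gp9 and Hba-a1 did not pass the filter on low counts.

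In KC pancreas, 3 members passed the filter and none was called, beside 28 of 9555 genes (0.293%). Ppbp was flat by estimate, at 0.17 ± 0.68 (adjusted p = 0.988), and Alas2 was at -0.39 ± 0.67 (adjusted p = 0.965). Bpgm had a slope of 1.81 ± 0.69 with an adjusted p of 0.362 in edgeR and, as 1.86, an adjusted p of 0.0065 in DESeq2, which called 422 genes there. Its 3 high libraries are both of 20 weeks and 1 of 2 of 30 weeks, and the other library of 30 weeks, Sample_303P8, was at 5.04 CPM. The difference of the 2 slopes was tested for 6 members and none was called by edgeR, beside 6 of 11059 genes (0.0543%). For Itga2b it was 5.73 ± 2.15 (adjusted p = 0.384), which DESeq2 called at 5.93 (adjusted p = 0.00464) among 238 genes. Sample_205P8 alone holds 895 of the 913 Itga2b counts in KC pancreas, and without that library, or without Sample_95B8 or Sample_132B8, Itga2b did not pass the filter.

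**Figure D5:**
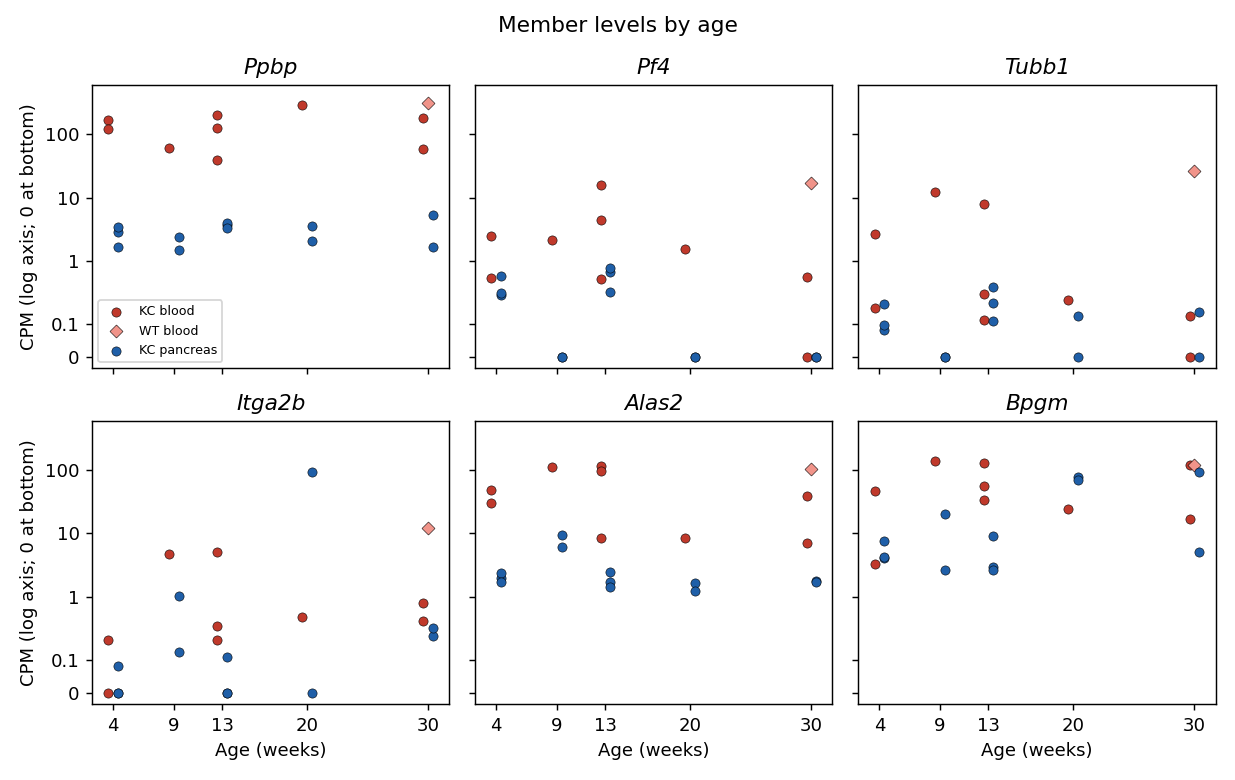
Level of 6 genes in CPM (log axis, 0 at the bottom) against age in weeks for KC blood, KC pancreas and the WT blood library (diamond); points are libraries, drawn side by side within an age. Ppbp in blood spans 38.7 to 201 CPM at 13 weeks alone, Tubb1 reaches 12.4 CPM at 9 weeks and at most 0.237 CPM at 20 and 30 weeks in KC blood, and Itga2b has a pancreas point of 92.2 CPM at 20 weeks.

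WT and KC blood could be compared at 30 weeks only, with 1 WT library against Sample_302B8 and Sample_303B8, and the lone WT library is assumed to vary like the KC libraries. All 7 members tested had lower estimates in KC, beside a median log2 value of 0 over all genes. Gp9, with 124 counts in WT blood and at most 1 in KC blood, passed the filter through the WT library alone. Its direction was thus set in advance, and nothing is read from the shared direction. None was called: edgeR called 0 of 12496 genes (0%), 354 had an unadjusted p under 0.05, and DESeq2 called 11. The values were largest for Gp9 (log2 -9.08 ± 4.09) and Tubb1 (-8.45 ± 3.44), followed by Pf4 (-5.87 ± 3.07), Itga2b (-4.39 ± 3.07), Alas2 (-2.20 ± 2.05), Ppbp (-1.40 ± 1.64) and Bpgm (-0.84 ± 2.08), each with an adjusted p of 1. Gp9 had 0 counts and Tubb1 at most 1 in these KC libraries, so the fitted values of both depend on the prior count. The estimates turned on which KC library of 30 weeks was kept: without Sample_303B8 they were -10.3 for Pf4, -4.02 for Alas2, -2.54 for Ppbp and -2.98 for Bpgm, and without Sample_302B8 they were -4.88, -1.41, -0.76 and -0.0147. With trace set as a term, Alas2 and Bpgm turned to 0.50 and 0.13. Strain cannot be told apart from this 1 library, which is in set 1 and holds 10642 genes with at least 10 counts, whereas both KC libraries are in set 2 and hold 8655 and 8778.

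In pancreas, 4 members were tested between KC and WT over 9 and 30 weeks, and none was called beside 28 of 12374 genes (0.226%). The median log2 value of all genes was 0.41. Ppbp was at -0.08 ± 2.05 (adjusted p = 1.0, direction not kept under other scaling), with 31 and 33 counts in the WT libraries and 14 to 34 in KC. Alas2 was at -1.11 ± 1.997, Bpgm at 0.54 ± 1.76 and Itga2b at 4.66 ± 2.61 (adjusted p = 0.871), the last with 0 counts in both WT libraries and, without Sample_205P8, not passing the filter. DESeq2 called Itga2b (adjusted p = 3.5e-09), with a fitted value that depends on the zeros in WT and is no size.

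Across the 9 KC blood libraries, no relation between members passed the test. Of 3 relations computed on log2(CPM + 1), with two-sided exact permutation tests, Ppbp with Pf4 had r = 0.391 (p = 0.293) and rho = 0.467 (p = 0.213). Alas2 with Bpgm had r = 0.453 (p = 0.229) and rho = 0.617 (p = 0.0857), and Ppbp with Alas2 had r = -0.488 (p = 0.186) and rho = -0.483 (p = 0.194) in the exact permutation tests. Adjusted over the 3 relations, each r had a permutation p of 0.293. Without the 2 libraries farthest from the median of the first gene, r was 0.412, 0.385 and -0.111. The relation of Alas2 with Bpgm turned on 1 library: without Sample_43B8, r was 0.852 (adjusted exact permutation p = 0.0320), and within the 6 libraries of trace set 2 it was 0.955 (adjusted exact permutation p = 0.0167). That of Ppbp with Alas2 was -0.841 without Sample_302B8 (adjusted exact permutation p = 0.00238) and -0.327 within set 2. With library sizes scaled by TMM it was -0.143 (exact permutation p = 0.704). Set 1 has 3 KC blood libraries, too few for a value. The omissions of Sample_43B8 and Sample_302B8 were picked from 9 such fits after their values were seen. Their p-values, from the exact permutation tests, are adjusted for the 3 relations only. Set 2 does not hold Sample_43B8, so its value for Alas2 with Bpgm is not separate from that omission.

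Over all 24 libraries, of 13474 genes, those most like Ppbp by Pearson r of log2(CPM + 1) were Nrgn (0.755), Fech (0.743), Papd7 (0.738), Gda (0.703) and Coa3 (0.691). Nrgn, a calmodulin-binding protein, is on the platelet list, and Fech, the last enzyme of haem synthesis, is on the red cell list. For Alas2 they were Trp53rkb (0.752), Ift52 (0.721), Hsd11b2 (0.720), Orc1 (0.719) and Trp53i13 (0.714), none of them on either list. Hsd11b2 and Trp53i13 had KC blood medians of 0.102 and 0 CPM. The 24 points share tissue, trace set and depth, and these values are a description.

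Markers of other cells that a blood or pancreas sort could hold were also summed. In KC blood the sum of 10 monocyte and macrophage markers was 66.1 to 581 CPM and in KC pancreas 110.2 to 601 CPM. The sum of 9 neutrophil markers was 27.6 to 137 and 5.65 to 121 CPM, with Elane, Mpo, Camp and Ngp at 0 in both groups. The sum of 6 endothelial markers, some of which platelets or megakaryocytes also express, was 12.8 to 522 CPM in KC blood and 6.05 to 253 CPM in KC pancreas, and Kdr was at 0 in both. For 8 B cell markers it was 0.727 to 83.4 and 0.651 to 95.8 CPM. The sum of 4 NK cell markers had a median of 7.41 CPM in KC blood and 1.64 CPM in KC pancreas, with ranges of 0.182 to 66.0 and 0 to 28.8 CPM. The sum of 14 markers of acinar cells, the enzyme-secreting cells of the pancreas, had a median of 0.397 CPM in KC blood, up to 70.8, and of 72.8 CPM in KC pancreas, up to 8706. The ranges of each of these sums overlapped between tissues; their part in the members' levels was not tested.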

How the data were processed

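RNA of sorted CD8 T cells was measured in 24 libraries. The authors deposited raw read counts per gene symbol, not normalised, in 24 files of 24421 genes and 5 tallies. TopHat, SAMtools, HTSeq and DESeq are named with build mm10 in the submitters' processing notes, and versions, settings, strand use and annotation are not given in the sources used here. Of tallied reads, 11.7% to 32.5% were in genes and 48.6% to 69.7% in no feature; tallies stayed out of library sizes. With strand use unknown, a gene's reads are not separable from those of an overlapping or antisense one.

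CPM are counts scaled to a library's gene total of 1000000. Groups and ages came from the labels. R 4.3.3 ran edgeR 4.0.16: the filterByExpr filter (minimum count 10), scaling by TMM and two-sided robust quasi-likelihood F-tests, with Benjamini-Hochberg adjustment over all genes of a comparison and a threshold of 0.05. Common coefficients of variation were 1.12 to 1.32, and an SE is the log2 value over the root of F. Comparisons were KC pancreas against KC blood (21 libraries, age as a factor), age as a number in each KC tissue, the difference of those trends, and contrasts of strain and age. Correlations used a pseudocount of 1 CPM (0.1 as an alternative) and exact permutation tests. Alternatives were RLE scaling, no filter, DESeq2 1.42.0, trace set as a term, the title number as a block, no 4-week libraries, and each library left out; leaving out the 4 libraries with the most genes was added after seeing the data. Positions came from GENCODE M21 (GRCm38) and promoters from RefSeq.

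The members and lists were chosen with earlier results of these data known. Named were all members, any called gene of the lists, the 3 other genes of each list with the highest mean CPM in KC blood, and the 5 most like Ppbp and Alas2; F5, P2ry12, Gp1ba, Sparc, Fermt3 and listed genes at 0 were named after their values were seen. Of the lists, 46 of 46 platelet and 50 of 53 red cell symbols matched the files.

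The fits were tested on simulated counts. For KC tissues (10799 genes), 1.49%, 7.46% and 51.5% of changes of log2 1, 2 and 4 were recovered. For the trend in KC blood (9528 genes) slopes of 1, 2 and 4 were recovered in 1.49%, 22.4% and 86.4%. Between strains, changes of log2 4 were recovered in 0% in blood (11666 genes) and 0% in pancreas (11642 genes).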

Additional observations from a re-analysis of the deposited data

Results flagged for a closer look

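In 13 sets of 9 KC blood values (7 members with counts and 6 named genes of the lists), 1 library stood apart from the rest by the size of the gap next to it for 5 genes. The chance rate of about 1 in 20 for this gap measure assumes normally distributed values. CPM were used without a log scale and all 5 libraries stood apart at the high end, so no excess over chance is read from this. Pf4 was at 15.8 CPM in Sample_133B8, 136 counts, where the next library had 4.38 CPM, while Ppbp in that library was at 201 CPM and Tubb1 at 0.116 CPM. In the same library Slc25a37 was at 576 CPM, while Alas2 was at 8.46 CPM. Tuba4a was at 322 CPM in Sample_131B8, the library with the lowest Ppbp. Plek was at 285 CPM in Sample_302B8, the library with no Pf4 counts. Mkrn1 was at 505 CPM in Sample_43B8, which had the lowest Bpgm of KC blood.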

How the results depend on the processing

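Counts of genes called, over all genes, depended on the processing, and the cause was not tested. Without a filter on low counts, edgeR called 34 genes between KC tissues, 102 for the trend in KC blood and 686 for that in KC pancreas; DESeq2 called 479, 315 and 422, and 238 for the difference of trends, 11 between strains in blood and 158 in pancreas. With trace set as a term, 0 were called for the KC pancreas trend, 1 for the difference of trends and 5 between strains in blood; it could not be fitted for strains in pancreas. Without the 4-week libraries, 0 were called for the KC pancreas trend and 0 for the difference, which also had 0 under RLE scaling and 0 without the 4 libraries with the most genes. Leaving out 1 library gave 6 (without Sample_302P8) to 21 (without Sample_131B8) calls between KC tissues, 0 to 12 for the blood trend, 10 to 31 for the pancreas trend, 0 to 13 for the difference, 0 to 2 between strains in blood and 4 to 29 in pancreas; the lone WT blood library could not be left out. The replicate block by title number gave 14 calls between KC tissues and 0 for the difference of trends; in 7 pairs deviations correlated at -0.07 to 0.01 and 0 were highest with their own number, which does not show whether a number marks a mouse. Of 441 refitted member values outside the tissue contrast, 412 kept direction and side, 26 turned and 3 became called. Those called were, in DESeq2, Bpgm (pancreas trend) and Itga2b (difference, and strains in pancreas). Turned were Ppbp without the 4-week libraries (0.0937 in blood, -0.0852 in pancreas, -0.17 for the difference), Pf4 in the difference (0.01997 with RLE, 0.61 with trace set, 0.0919 without the 4 libraries, -0.87 to 0.43 with 1 library left out), Bpgm in blood (0.00808 without the 4 libraries, -0.87 to 0.21 with 1 left out), Alas2 and Bpgm between strains in blood with trace set (0.50 and 0.13), and, between strains in pancreas, Ppbp (0.0309 with RLE, 0.0251 in DESeq2, -0.81 to 0.66 with 1 left out), Alas2 (-2.65 to 0.43) and Bpgm (-1.12 to 1.005). Across all settings of 1 library left out, r was 0.247 to 0.487 for Ppbp with Pf4, 0.346 to 0.852 for Alas2 with Bpgm and -0.841 to -0.321 for Ppbp with Alas2 (-0.143 with TMM scaling), and in trace set 2 that of Alas2 with Bpgm was 0.955. Summed ratios moved by less than the spread between libraries. Genes with few counts limit Gp9, Tubb1 and Itga2b.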
